A study of Canis lupus familiaris with 15 samples.

Results

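The 45 genes described here encode collagens, laminins and other proteins of the extracellular matrix (ECM) of the canine corpus luteum (CL), together with the metalloproteinases that cut them and the inhibitors of these enzymes. They were chosen by measured values: each stands in the authors' lists of differentially expressed genes (DEG) for at least 1 of 4 contrasts, and was taken for the start of its symbol (COL with a digit, LAMA, LAMB, LAMC, HSPG, FBN, FBLN, THBS, TNC, MMP, TIMP or ADAM, with ADAMTSL2 left out). They are 45 of the 23630 genes counted. By role they fall into 6 fibrillar collagens, 8 basement membrane and network-forming proteins, 4 FACIT and transmembrane collagens, 7 matrix glycoproteins, 5 matrix metalloproteinases (MMP), 3 tissue inhibitors of metalloproteinases (TIMP), 6 ADAM proteases and 6 ADAMTS proteases. Symbols were at hand only for the 2970 genes of those lists, so that other members of the same families were not examined.

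The ECM of the CL is laid down as the ruptured follicle is invaded by vessels and stromal cells. Fibrillar collagens give the tissue tensile strength, whereas laminins, perlecan and collagen IV form the basement membranes on which endothelial and steroidogenic cells rest. MMP and ADAMTS proteases degrade these proteins, TIMP block the proteases by binding their active site, and ADAM proteases mostly shed proteins from the cell surface. When a CL regresses, its matrix is taken apart and rebuilt as scar.

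RNA-Seq libraries of poly-A RNA, 1 for each dog, were made from the CL of 15 clinically healthy bitches of mixed breed, 2 to 8 years old. The CL were obtained by ovariohysterectomy from 5 pregnant dogs at mid-gestation (Nescafe, Turgay, Dardanel, Gold and Kurtulus, days 35 to 40 after ovulation), from 5 pregnant dogs given an antigestagen (Citir, Suzan, Birnur, Seran and Zeynep, days 40 to 45), from 3 pregnant dogs at prepartum luteolysis (Amy, Kimba and Senta) and from 2 non-pregnant dogs in luteal regression at day 65 (Lissy and Mara). The antigestagen was aglepristone, a blocker of the progesterone (P4) receptor, of which 10 mg/kg was injected 2 times with 24 h between, and tissue was taken 24 h later. Luteolysis was recognised from P4 measured every 6 h from day 58, once 3 values in a row lay below 2 to 3 ng/ml. Luteal regression therefore rests on 2 dogs, and further dogs of that group were not analysed here. Luteal regression dogs differed from all others in not being pregnant, so that pregnancy and the stage of the CL cannot be told apart in contrasts with them. The pregnant groups were sampled at different days, so that treatment or luteolysis and the day after ovulation cannot be told apart between them.

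The libraries held between 8558743 and 26284315 counted reads. Levels are given as CPM, the reads of a gene brought to a common library size, and can be compared between dogs but not between genes, since no gene lengths were used. A log2 ratio of 1 is a doubling, each comes with its standard error (SE), and a contrast written "mid-gestation over luteolysis" is positive where mid-gestation was higher. DEG are genes with p below 0.01 and adjusted p below 0.1 in the quasi-likelihood test of edgeR over all genes. In tissue RNA, fewer cells of a type and less RNA per cell cannot be told apart. The luteal markers PRLR and CYP17A1, the only 2 of 13 with an identifier here, had reads in every dog. They summed to 335 to 912 CPM at mid-gestation, 184 to 365 after antigestagen, 206 to 408 in luteolysis and 693 to 923 in luteal regression. The 2 did not move together: mean PRLR was 104 CPM at mid-gestation and 153 after antigestagen, mean CYP17A1 473 and 97.9. Their sum is therefore not read as a measure of luteal cell content.

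All 45 genes passed the filter on low counts, but COL2A1, COL23A1, MMP-12 and MMP1 had a mean count below 10 in at least 1 group and passed through the groups where they were higher. In the 4 contrasts that chose the genes, counts of DEG follow from the choice and are given as a description only. In "mid-gestation over luteolysis" 17 of 45 were DEG (all genes tested: 8.16%), 9 of them higher (2.43%) and 8 lower (5.73%) at mid-gestation. In "luteal regression over luteolysis" 10 were DEG (5.11%), 8 higher (1.52%) and 2 lower (3.58%) in luteal regression. In "luteolysis over antigestagen" 11 were DEG (4.75%), 7 higher (3.12%) and 4 lower (1.62%) in luteolysis. In "mid-gestation over antigestagen" none was (0%). DESeq2 gave 27 (11.9%), 23 (10.6%), 18 (10.3%) and 0 (0.604%) in the same order. Each gene was also taken in that of the 4 contrasts in which edgeR gave it the smallest p. The 3 then standing least clear of the limits were COL27A1 and FBN3 in "luteal regression over luteolysis", with log2 ratios of 1.85 (SE 0.75) and 2.45 (SE 0.98), and HSPG2 in "luteolysis over antigestagen", at -0.98 (SE 0.38). None of these 3 was a DEG here, and the genes just outside the authors' lists have no symbol here.

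**Figure D1:**
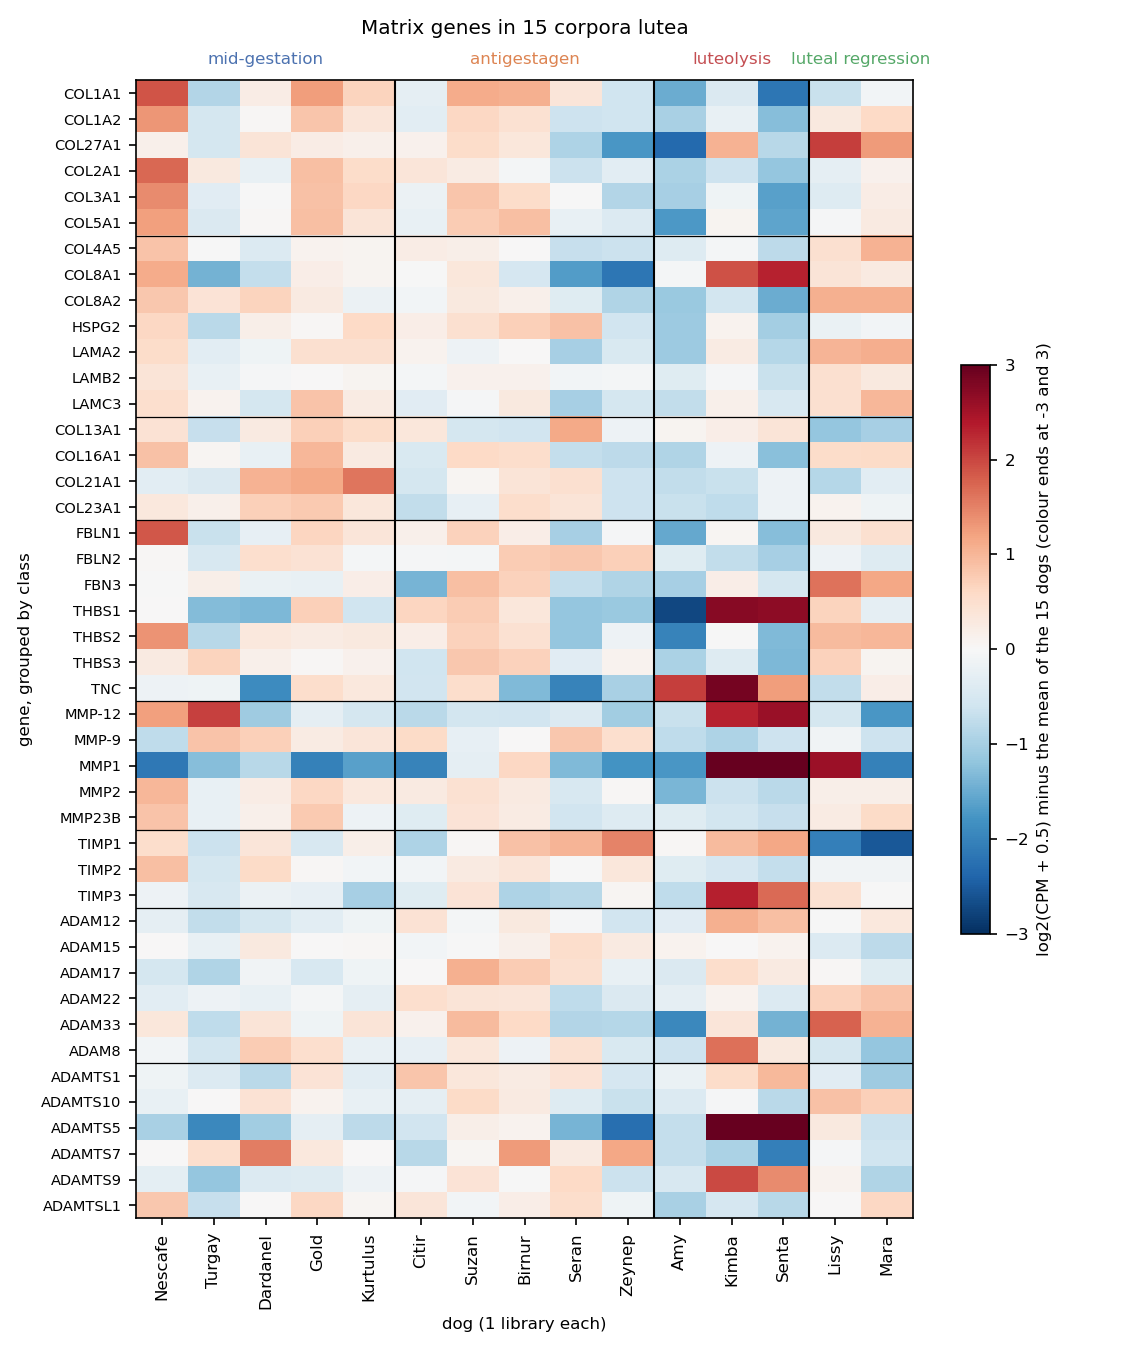
Level of 44 of the 45 genes (rows, by role) in each dog (columns, by group), as log2 CPM with 0.5 added, minus the mean of that gene over the 15 dogs; red is above and blue below that mean. A set of genes led by MMP1, ADAMTS5, THBS1 and TIMP3 is red in the luteolysis dogs Kimba and Senta and not in Amy, while the fibrillar collagen rows are blue in Amy and Senta.

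The luteolysis dogs did not move together. Amy had the lowest level of the 3 in 26 of the 45 genes (57.8%, against 41.7% of the 14922 genes in the fit), and Kimba the highest in 32 (71.1%, against 35.8%). At mid-gestation Nescafe was highest of the 5 dogs in 20 genes (44.4%, against 19.6%) and Turgay lowest in 27 (60.0%, against 31.2%). These 45 genes also varied more between dogs of a group than genes did in general. The median SD of log2 CPM within a group was 0.601 in luteolysis (0.373 over all genes), 0.568 after antigestagen (0.383), 0.524 at mid-gestation (0.317) and 0.329 in luteal regression (0.15). These values are descriptions of the libraries and were not tested. The 45 genes were chosen from lists made with these dogs, and other members of the families were not examined. Neither comparison with all genes is therefore read as a trait of matrix genes. Of markers of other cell types, 2 of 10 for pericytes and smooth muscle (TAGLN and MCAM) summed to 232 CPM in Amy, 1170 in Kimba and 1220 in Senta, against 83 to 624 at mid-gestation, 205 to 274 after antigestagen and 177 to 219 in luteal regression. The split lay in TAGLN, at 60.3, 1010 and 988 CPM in Amy, Kimba and Senta, whereas MCAM was at 171, 162 and 231. The 3 of 10 for neutrophils summed to 8.03, 92.2 and 46 CPM in Amy, Kimba and Senta, to 8.5 to 42.2 at mid-gestation, 20.6 to 44.5 after antigestagen and 2.16 to 7.63 in luteal regression, and no marker was at 0 in any dog. Endothelial markers (5 of 12) summed to 424, 962 and 886 CPM in Amy, Kimba and Senta. Proliferation markers (4 of 8) summed to 36.9, 82.5 and 95.9, with the split in RRM2 (4.13, 50.9 and 64.7). Macrophage (441, 400 and 382) and granulosa cell (880, 690 and 566) sums were highest in Amy. So were those of lymphocytes (4.88, 2.73 and 2.55) and luteal cells (408, 347 and 206). The part of any of these cells in the results was not tested, and TAGLN alone does not mark 1 cell type.

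MMP1, the interstitial collagenase that makes the first cut in fibrillar collagen, differed most. In luteolysis its level was 0.225 CPM in Amy, 322 in Kimba and 280 in Senta. At mid-gestation it was 0.0525 in Nescafe, 0.514 in Turgay, 0.883 in Dardanel, 0.104 in Gold and 0.288 in Kurtulus. After antigestagen it was 0.111 in Citir, 1.54 in Suzan, 3.27 in Birnur, 0.473 in Seran and 0.202 in Zeynep, and in luteal regression 14.1 in Lissy and 0.103 in Mara. Kimba and Senta thus lay far above every other dog, Amy lay among the mid-gestation dogs, and Lissy lay between. This gave a log2 ratio of -9.13 (SE 1.57) in "mid-gestation over luteolysis", 7.30 (SE 1.42) in "luteolysis over antigestagen" and -4.81 (SE 1.85) in "luteal regression over luteolysis". Without Amy the first was -9.72, without Kimba -8.61 and without Senta -8.79. The third was -10.84 without Lissy and -3.83 without Mara. At mid-gestation the mean count was 7.0 reads per library, so that the size of the first ratio is uncertain.

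ADAMTS5, an aggrecanase that cuts the proteoglycans aggrecan and versican, showed the same split. Its CPM were 4.20 in Amy, 297 in Kimba and 213 in Senta. At mid-gestation they were 3.46 in Nescafe, 1.54 in Turgay, 3.28 in Dardanel, 5.90 in Gold and 4.03 in Kurtulus, after antigestagen 4.67 in Citir, 8.20 in Suzan, 7.89 in Birnur, 2.43 in Seran and 1.11 in Zeynep, and in luteal regression 9 in Lissy and 4.46 in Mara. Apart from Kimba and Senta, all dogs fell between 1.11 and 9 CPM. Log2 ratios were -5.55 (SE 0.88) in "mid-gestation over luteolysis", 5.11 (SE 0.86) in "luteolysis over antigestagen" and -4.67 (SE 1.25) in "luteal regression over luteolysis", and without Amy the first was -6.13. TIMP3, the inhibitor that stays bound to the matrix and is known to inhibit ADAMTS5, stood at 432 CPM in Amy, 3690 in Kimba and 2370 in Senta. It was 654 in Nescafe, 524 in Turgay, 645 in Dardanel, 614 in Gold and 366 in Kurtulus, 572 in Citir, 976 in Suzan, 384 in Birnur, 409 in Seran and 765 in Zeynep, and 1000 in Lissy and 723 in Mara. A protease and its inhibitor were thus high in the same 2 libraries. The log2 ratio of TIMP3 was -1.95 (SE 0.47) in "mid-gestation over luteolysis" and 1.8 (SE 0.47) in "luteolysis over antigestagen". The first was -2.43 without Amy, and it was -1.33 without Kimba and -1.86 without Senta, where TIMP3 was no longer a DEG. In the second the call was lost without Kimba (1.18), Senta (1.71), Birnur (1.67) or Seran (1.67).

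**Figure D2:**
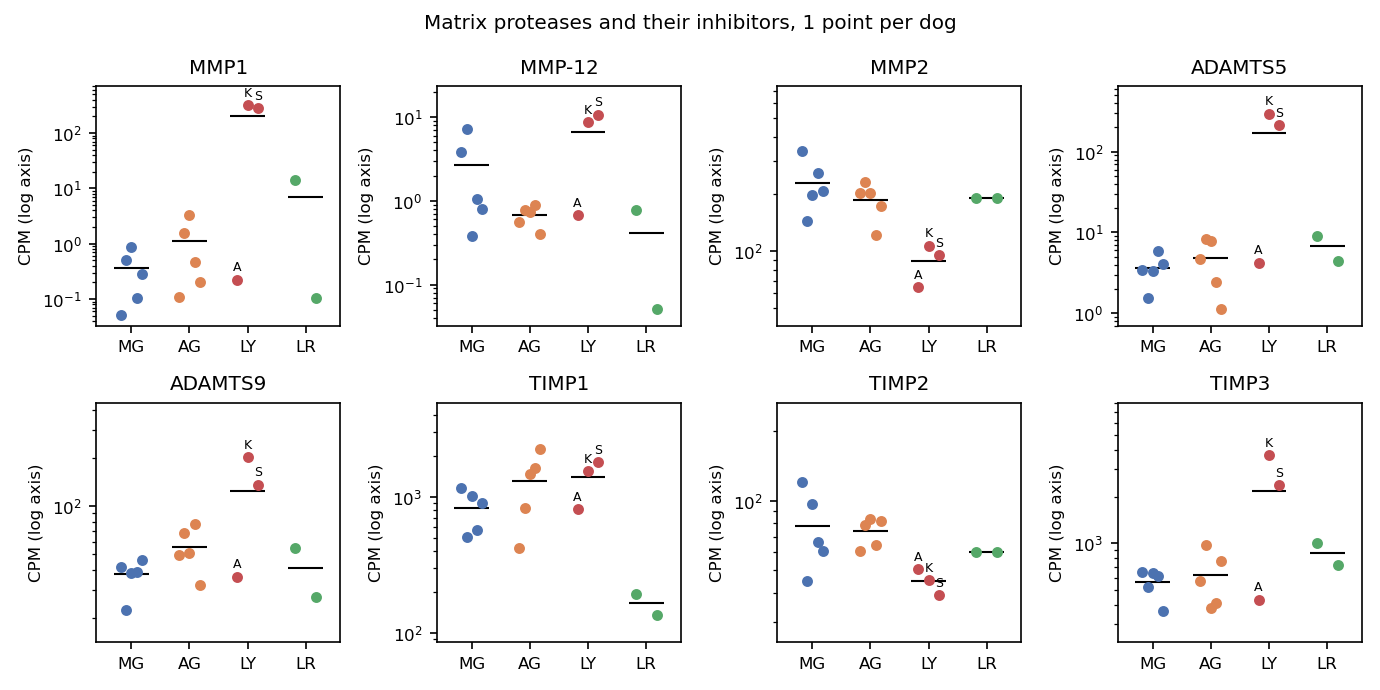
CPM (log axis) of proteases and inhibitors, 1 point per dog, with the mean of each group as a line (MG, mid-gestation, AG, antigestagen, LY, luteolysis, LR, luteal regression, with A, K and S marking Amy, Kimba and Senta). MMP1 and ADAMTS5 reach 322 and 297 CPM in Kimba, whereas Amy stands at 0.225 and 4.20, and TIMP1 is lowest in the 2 luteal regression dogs.

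Further genes with this split were picked out after their values had been seen. THBS1, a matricellular glycoprotein that activates TGF-beta and restrains vessel growth, was at 31.5 CPM in Amy, 1410 in Kimba and 1380 in Senta, against 82.7 to 349 at mid-gestation, 94.8 to 359 after antigestagen and 340 and 176 in Lissy and Mara. Amy had the lowest level of all 15 dogs and Kimba and Senta the highest. The log2 ratio was -2.43 (SE 0.79) in "mid-gestation over luteolysis" and 2.03 (SE 0.78) in "luteolysis over antigestagen". ADAMTS9, another aggrecanase, was at 36.3, 202 and 136 CPM in Amy, Kimba and Senta, and between 22.5 and 77.4 in the other 12 dogs, with a log2 ratio of -1.73 (SE 0.41) in "mid-gestation over luteolysis". COL8A1, a short-chain collagen of vessel walls, was at 6.91, 28.2 and 37.5 CPM in Amy, Kimba and Senta and between 1.21 and 16.1 elsewhere (log2 ratio 2.31, SE 0.65, in "luteolysis over antigestagen").

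TNC, encoding tenascin-C, a glycoprotein of wounds and remodelling tissue, was high in all 3 luteolysis dogs. It was at 28.1 CPM in Amy, 48.6 in Kimba and 15.5 in Senta, above all 12 other dogs, which lay between 1.18 and 9.29. Its log2 ratios were -2.36 (SE 0.59) in "mid-gestation over luteolysis", 2.97 (SE 0.61) in "luteolysis over antigestagen" and -2.51 (SE 0.83) in "luteal regression over luteolysis".

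MMP-12, the macrophage elastase, was at 0.676 CPM in Amy, 8.66 in Kimba and 10.7 in Senta. At mid-gestation it was at 3.88 in Nescafe, 7.24 in Turgay, 0.379 in Dardanel, 1.04 in Gold and 0.791 in Kurtulus, after antigestagen at 0.556 in Citir, 0.769 in Suzan, 0.741 in Birnur, 0.887 in Seran and 0.404 in Zeynep, and in luteal regression at 0.782 in Lissy and 0.0513 in Mara. High levels thus occurred in 2 luteolysis and 2 mid-gestation dogs. Its log2 ratio was 3.28 (SE 0.91) in "luteolysis over antigestagen", 1.95 (SE 0.84) in "mid-gestation over antigestagen" and -3.98 (SE 1.35) in "luteal regression over luteolysis".

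MMP2, the gelatinase that stromal cells make, ran the other way and did so in all 3 luteolysis dogs. It was at 64.6 CPM in Amy, 107 in Kimba and 95.1 in Senta. At mid-gestation it was at 337 in Nescafe, 145 in Turgay, 198 in Dardanel, 257 in Gold and 208 in Kurtulus, after antigestagen at 203 in Citir, 230 in Suzan, 203 in Birnur, 121 in Seran and 173 in Zeynep, and in luteal regression at 190 in Lissy and 191 in Mara. Every luteolysis dog lay below every dog of the other groups. Its log2 ratio was 1.36 (SE 0.28) in "mid-gestation over luteolysis", 1.10 (SE 0.32) in "luteal regression over luteolysis" and -1.06 (SE 0.27) in "luteolysis over antigestagen". In the contrasts between the other groups it lay between -0.26 and 0.30. MMP2 was a DEG in each contrast with luteolysis, but in none of them without Senta. The call was also lost without Amy in "luteal regression over luteolysis", and without Amy, Kimba or Birnur in "luteolysis over antigestagen". MMP-9, the gelatinase of leukocytes, was between 0.751 and 1.04 CPM in luteolysis, below all antigestagen dogs (1.49 to 3.67), with a log2 ratio of -1.51 (SE 0.47) in "luteolysis over antigestagen" and 1.51 (SE 0.47) in "mid-gestation over luteolysis". MMP23B, a membrane-anchored MMP, was between 13.2 and 16.9 CPM in luteolysis, below all mid-gestation dogs (18.7 to 40) and both luteal regression dogs (26 and 32.5), with log2 ratios of 0.91 (SE 0.30) and 0.97 (SE 0.36). The DEG among the 5 MMP in "mid-gestation over luteolysis" were MMP1, higher in luteolysis, and MMP2 and MMP-9, lower in luteolysis. MMP23B and MMP-12, the latter at -1.33 (SE 0.86), were not DEG by edgeR there.

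Fibrillar collagens had lower mean levels in luteolysis than at mid-gestation. All 6 had a positive log2 ratio in "mid-gestation over luteolysis", from 0.19 to 3.14 with a median of 1.41, against a median of -0.02 over all genes tested, and 3 of them were DEG. This contrast helped to choose the genes, so that the distance from the median of all genes follows in part from the choice. All 6 were also positive in "luteal regression over luteolysis" (median 1.08, none a DEG by edgeR), and 5 of 6 were negative in "luteolysis over antigestagen" (median -1.04, none a DEG). COL1A1, a chain of type I collagen, was at 400 CPM in Amy, 832 in Kimba and 249 in Senta. At mid-gestation it was at 4140 in Nescafe, 605 in Turgay, 1300 in Dardanel, 2660 in Gold and 1780 in Kurtulus, after antigestagen at 927 in Citir, 2420 in Suzan, 2330 in Birnur, 1430 in Seran and 735 in Zeynep, and in luteal regression at 698 in Lissy and 1060 in Mara. Amy and Senta lay below all other dogs, whereas Kimba overlapped with Turgay, Zeynep and Lissy. The log2 ratio was 2.09 (SE 0.60) in "mid-gestation over luteolysis", -1.67 (SE 0.59) in "luteolysis over antigestagen" and 0.83 (SE 0.68) in "luteal regression over luteolysis". Without Kimba the first was 2.69, and without Amy or Senta it was 1.96 or 1.79 and COL1A1 was no longer a DEG. The call was also lost without the mid-gestation dogs Nescafe (1.69) or Gold (2.0).

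COL3A1, the type III collagen of loose and healing tissue, was at 683 CPM in Amy, 1250 in Kimba and 437 in Senta. At mid-gestation it was at 3670 in Nescafe, 1080 in Turgay, 1350 in Dardanel, 2520 in Gold and 2110 in Kurtulus, after antigestagen at 1210 in Citir, 2440 in Suzan, 2000 in Birnur, 1350 in Seran and 737 in Zeynep, and in luteal regression at 1050 in Lissy and 1580 in Mara. Again Kimba alone of the luteolysis dogs reached the other groups. Log2 ratios were 1.44 (SE 0.47) in "mid-gestation over luteolysis", -0.97 (SE 0.46) in "luteolysis over antigestagen" and 0.74 (SE 0.55) in "luteal regression over luteolysis". COL3A1 was a DEG in the first of these, but not with Amy, Senta, Nescafe, Dardanel, Gold or Kurtulus left out. COL2A1, the collagen of cartilage, was scarce, with at most 69 reads in a dog. It was at 0.15 CPM in Amy, 0.316 in Kimba and 0.058 in Senta, at 3.62 in Nescafe, 1.03 in Turgay, 0.568 in Dardanel, 1.83 in Gold and 1.33 in Kurtulus, at 1.11 in Citir, 0.974 in Suzan, 0.697 in Birnur, 0.296 in Seran and 0.505 in Zeynep, and at 0.538 in Lissy and 0.872 in Mara. No luteolysis dog reached the mid-gestation or luteal regression dogs, and the log2 ratio was 3.14 (SE 0.73) in "mid-gestation over luteolysis" and 1.23 (SE 0.54) in "mid-gestation over antigestagen".

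COL1A2 and COL5A1, which enter the same fibrils as COL1A1, had log2 ratios of 1.30 (SE 0.43) and 1.38 (SE 0.48) in "mid-gestation over luteolysis", and of 1.21 (SE 0.51) and 0.95 (SE 0.56) in "luteal regression over luteolysis". The chains of type I collagen did not keep a fixed proportion. The CPM of COL1A1 per CPM of COL1A2 was 0.284 in Amy, 0.348 in Kimba and 0.217 in Senta, and 0.205 in Lissy and 0.252 in Mara. It was 0.594 in Nescafe, 0.315 in Turgay, 0.456 in Dardanel, 0.537 in Gold and 0.501 in Kurtulus, and 0.414 in Citir, 0.571 in Suzan, 0.61 in Birnur, 0.786 in Seran and 0.399 in Zeynep. All luteolysis and luteal regression dogs lay below all antigestagen dogs, and of the mid-gestation dogs only Turgay overlapped with them. The ratio was looked at after the values had been seen and was not tested. COL27A1, a fibrillar collagen of developing cartilage, departed from the other 5. It was at 51.4 CPM in Lissy and 29 in Mara, at 1.95 in Amy, 24.8 in Kimba and 6.43 in Senta, at 13.1 in Nescafe, 8.02 in Turgay, 15.6 in Dardanel, 13.8 in Gold and 13.1 in Kurtulus, and at 12.9 in Citir, 17.4 in Suzan, 15.1 in Birnur, 5.97 in Seran and 3.13 in Zeynep. Both luteal regression dogs exceeded all pregnant dogs.

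**Figure D3:**
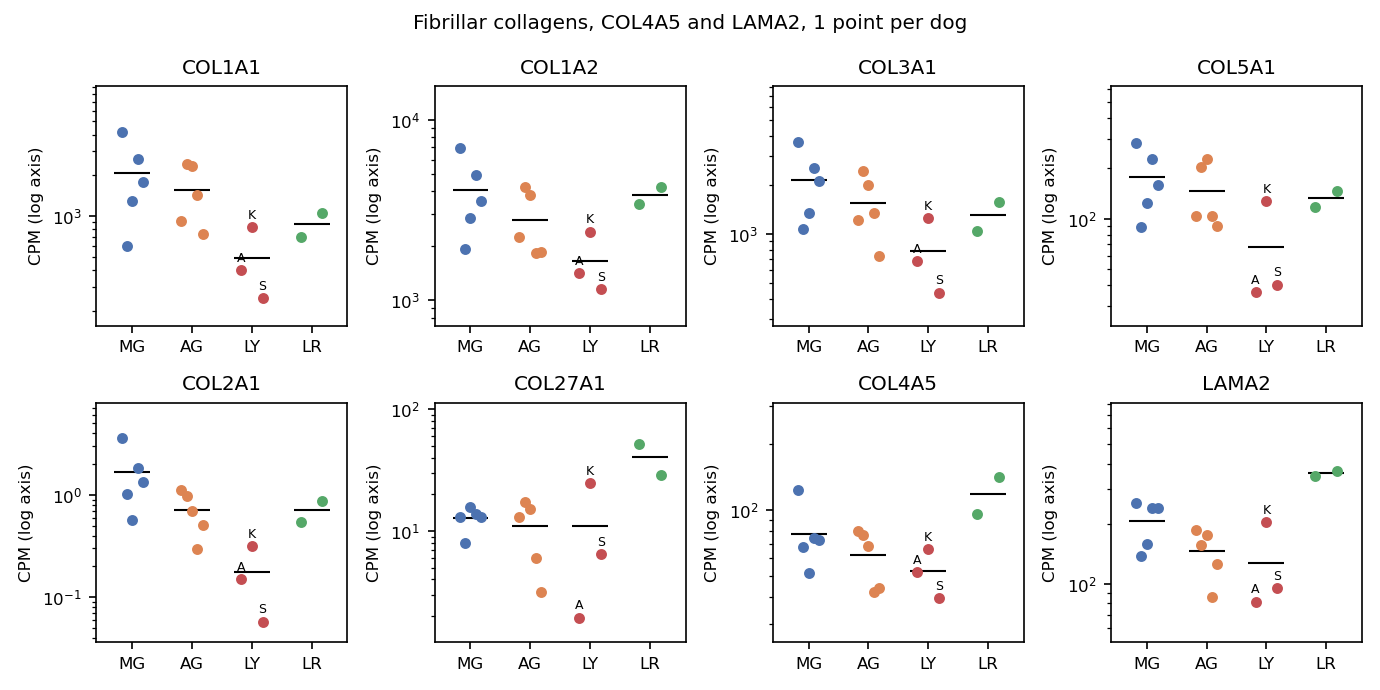
CPM (log axis) of the 6 fibrillar collagens and of the basement membrane proteins COL4A5 and LAMA2, 1 point per dog, with the mean of each group as a line (MG, mid-gestation, AG, antigestagen, LY, luteolysis, LR, luteal regression, with A, K and S marking Amy, Kimba and Senta). COL1A1, COL3A1 and COL2A1 are lowest in Senta, and COL27A1 and LAMA2 are highest in the 2 luteal regression dogs.

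Fibroblast markers (4 of 10, PDGFRA, CD248, PDGFRL and FAP) summed to 112 CPM in Amy, 316 in Kimba and 255 in Senta, to 154 to 264 at mid-gestation, 116 to 218 after antigestagen and 299 in each luteal regression dog, and none was at 0. In "mid-gestation over luteolysis" CD248 had a log2 ratio of 2.01 (SE 0.26), PDGFRL of 0.92 (SE 0.41) and PDGFRA of 0.55 (SE 0.37), positive like those of the fibrillar collagens. FAP had -1.43 (SE 0.32), and at 170 CPM in Kimba and 167 in Senta it made up the greater part of their sums. The part of fibroblast number in the collagen levels was not tested.

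Among proteins of basement membranes and networks, 6 of 8 had a positive log2 ratio in "mid-gestation over luteolysis" (median 0.59) and 6 of 8 in "luteal regression over luteolysis" (median 0.90). COL8A1 was negative in both. COL8A2, which assembles with COL8A1 into type VIII collagen, was at 0.45 CPM in Amy, 0.909 in Kimba and 0.232 in Senta. It was at 3.1 in Nescafe, 2.26 in Turgay, 2.78 in Dardanel, 1.98 in Gold and 1.33 in Kurtulus, at 1.45 in Citir, 2.05 in Suzan, 1.79 in Birnur, 1.12 in Seran and 0.606 in Zeynep, and at 3.81 in Lissy and 3.80 in Mara. The luteolysis dogs lay below all mid-gestation and luteal regression dogs, and the log2 ratio was 2.05 (SE 0.50) in "mid-gestation over luteolysis" and 2.79 (SE 0.57) in "luteal regression over luteolysis". The ratios of COL8A1 had the opposite sign, at -1.65 (SE 0.64) and -1.40 (SE 0.85) in these contrasts, but COL8A1 was a DEG in neither. This did not hold in every dog, since Amy, at 6.91 CPM of COL8A1, lay within the mid-gestation range (2.36 to 16.1). COL8A2 rested on 4 to 23 reads per dog in luteolysis.

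The laminin chains LAMA2, LAMB2 and LAMC3 and COL4A5, a chain of type IV collagen, were all higher in luteal regression than in luteolysis without overlap. LAMA2 was at 348 and 368 CPM in Lissy and Mara against 81.4, 204 and 94.9 in Amy, Kimba and Senta, with a log2 ratio of 1.5 (SE 0.39). The log2 ratio in this contrast was 0.72 (SE 0.22) for LAMB2, 1.07 (SE 0.40) for LAMC3 and 1.17 (SE 0.36) for COL4A5, and LAMA2, LAMB2, COL4A5 and COL8A2 were DEG. HSPG2, encoding perlecan, the heparan sulfate proteoglycan of basement membranes, was at 83.1, 190 and 86.4 CPM in Amy, Kimba and Senta and between 101 and 326 in pregnant dogs of the other groups.

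The FACIT collagens COL16A1 and COL21A1, which sit on the surface of fibrils, had log2 ratios of 1.18 (SE 0.39) and 1.36 (SE 0.45) in "mid-gestation over luteolysis". In "luteal regression over luteolysis" they parted, with 1.26 (SE 0.46) and -0.07 (SE 0.54). COL23A1, a transmembrane collagen, was scarce (3 to 36 reads per dog) and had a log2 ratio of 1.56 (SE 0.55) in "mid-gestation over luteolysis". COL13A1, the other transmembrane collagen, was at 4.30 CPM in Lissy and 4.87 in Mara. It was at 11 in Amy, 11.9 in Kimba and 13.7 in Senta, at 14.2 in Nescafe, 6.17 in Turgay, 12.6 in Dardanel, 17.3 in Gold and 15.2 in Kurtulus, and at 13.1 in Citir, 7.02 in Suzan, 6.71 in Birnur, 23.1 in Seran and 9.19 in Zeynep. Both luteal regression dogs lay below all 13 pregnant dogs, and the log2 ratio was -1.41 (SE 0.51) in "luteal regression over luteolysis".

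Other matrix glycoproteins followed the fibrillar collagens rather than TNC and THBS1 in sign. In "mid-gestation over luteolysis" the log2 ratio was 1.41 (SE 0.54) for FBLN1 and 0.81 (SE 0.28) for FBLN2, encoding fibulins that bind basement membrane and elastic fibres. It was 1.31 (SE 0.51) for THBS2 and 1.13 (SE 0.33) for THBS3, relatives of THBS1. THBS3 was at 16, 24 and 12.1 CPM in Amy, Kimba and Senta, below all mid-gestation dogs (32.5 to 50.7) and both luteal regression dogs (51.2 and 33.7). FBLN2 was at 332, 256 and 212 CPM in Amy, Kimba and Senta, below all antigestagen dogs (408 to 751), with a log2 ratio of -1.17 (SE 0.28) in "luteolysis over antigestagen". FBN3, a fibrillin of microfibrils, was at 3.52 CPM in Lissy and 2.41 in Mara. It was at 0.15 in Amy, 0.988 in Kimba and 0.406 in Senta, at 0.787 in Nescafe, 0.976 in Turgay, 0.631 in Dardanel, 0.626 in Gold and 1.01 in Kurtulus, and at 1.95 in Suzan, 1.61 in Birnur, 0.296 in Seran, 0.202 in Zeynep and 0 in Citir. The luteal regression dogs were above all others, at a low level.

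TIMP1, an inhibitor of most MMP that luteal cells secrete, separated the luteal regression dogs from all others. It was at 194 CPM in Lissy and 136 in Mara. It was at 814 in Amy, 1550 in Kimba and 1800 in Senta, at 1160 in Nescafe, 508 in Turgay, 1020 in Dardanel, 571 in Gold and 906 in Kurtulus, and at 421 in Citir, 821 in Suzan, 1460 in Birnur, 1630 in Seran and 2240 in Zeynep. The highest luteal regression dog stood below the lowest of the 13 pregnant dogs, and the log2 ratio was -3.07 (SE 0.63) in "luteal regression over luteolysis". In "luteolysis over antigestagen" the log2 ratio was 0.08 (SE 0.44), and its sign depended on single dogs. The summed level of macrophage markers (6 of 12) was also lowest in luteal regression, at 169 and 212 CPM, against 333 to 816 at mid-gestation, 354 to 1040 after antigestagen and 382 to 441 in luteolysis. None of them was at 0 in any dog, and their part in the TIMP1 level was not tested.

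TIMP2, which both inhibits MMP2 and helps to activate it, was at 50.6 CPM in Amy, 45.3 in Kimba and 39.1 in Senta, at 121 in Nescafe, 45.1 in Turgay, 97.2 in Dardanel, 66.5 in Gold and 60.6 in Kurtulus, at 60.8 in Citir, 78.5 in Suzan, 83.4 in Birnur, 64.7 in Seran and 81.8 in Zeynep, and at 59.9 in Lissy and 60 in Mara. The luteolysis dogs lay below all antigestagen and luteal regression dogs, with log2 ratios of -0.71 (SE 0.26) in "luteolysis over antigestagen" and 0.41 (SE 0.32) in "luteal regression over luteolysis". In "mid-gestation over luteolysis" it was 0.80 (SE 0.26). Turgay lay within the luteolysis range, and TIMP2 was not a DEG by edgeR in any contrast.

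Among the ADAM proteases, ADAM12, a protease of fusing and remodelling mesenchymal cells, was at 21.2, 57 and 50.3 CPM in Amy, Kimba and Senta and had a log2 ratio of -1.06 (SE 0.28) in "mid-gestation over luteolysis". ADAM33, a protease of smooth muscle and fibroblasts, was at 43.4 and 26.2 CPM in Lissy and Mara and at 2.85, 16.1 and 4.35 in Amy, Kimba and Senta (log2 ratio 2.15, SE 0.65, in "luteal regression over luteolysis"). ADAM22, a neuronal adhesion protein without protease activity, had 0.96 (SE 0.31) in that contrast, ADAM15 -0.67 (SE 0.21) and ADAM8, a protease of leukocytes, -2.19 (SE 0.80). ADAM17, the sheddase that releases TNF from the cell surface, was picked out after its values had been seen, since it had the smallest SE relative to its log2 ratio of all 45 genes in "mid-gestation over antigestagen", at -0.90 (SE 0.26). Its levels were 29.1, 22.4, 38.9, 30.1 and 38.5 CPM in Nescafe, Turgay, Dardanel, Gold and Kurtulus and 42, 88.6, 71.6, 58.3 and 35.8 in Citir, Suzan, Birnur, Seran and Zeynep, so that only Zeynep fell within the mid-gestation range.

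Of the ADAMTS proteases, ADAMTS7, which cuts cartilage oligomeric matrix protein, was at 4.73 CPM in Amy, 3.95 in Kimba and 1.57 in Senta. It was at 8.19 in Nescafe, 11.6 in Turgay, 24.4 in Dardanel, 10.2 in Gold and 8.16 in Kurtulus, at 4.34 in Citir, 8.41 in Suzan, 20.3 in Birnur, 9.88 in Seran and 18.5 in Zeynep, and at 7.87 in Lissy and 5.13 in Mara. The luteolysis dogs were below all mid-gestation dogs and overlapped the antigestagen dogs only through Citir, with log2 ratios of 1.87 (SE 0.54) in "mid-gestation over luteolysis" and -1.85 (SE 0.54) in "luteolysis over antigestagen". ADAMTSL1, an ADAMTS-like protein that lacks the protease domain, had 1.05 (SE 0.31) and -1.0 (SE 0.31) in these contrasts. ADAMTS10, which associates with fibrillin microfibrils, was highest in luteal regression at 30.5 and 26.9 CPM, against 8.98 to 24.5 in all pregnant dogs, with 1.22 (SE 0.35) in "luteal regression over luteolysis". ADAMTS1, which cuts versican at ovulation, had -1.19 (SE 0.42) in that contrast. The DEG of this class in "mid-gestation over luteolysis" were ADAMTS5 and ADAMTS9, higher in luteolysis, and ADAMTS7 and ADAMTSL1, lower in luteolysis. ADAMTS1, at -0.72 (SE 0.32), and ADAMTS10, at 0.45 (SE 0.29), were not DEG there.

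**Figure D4:**
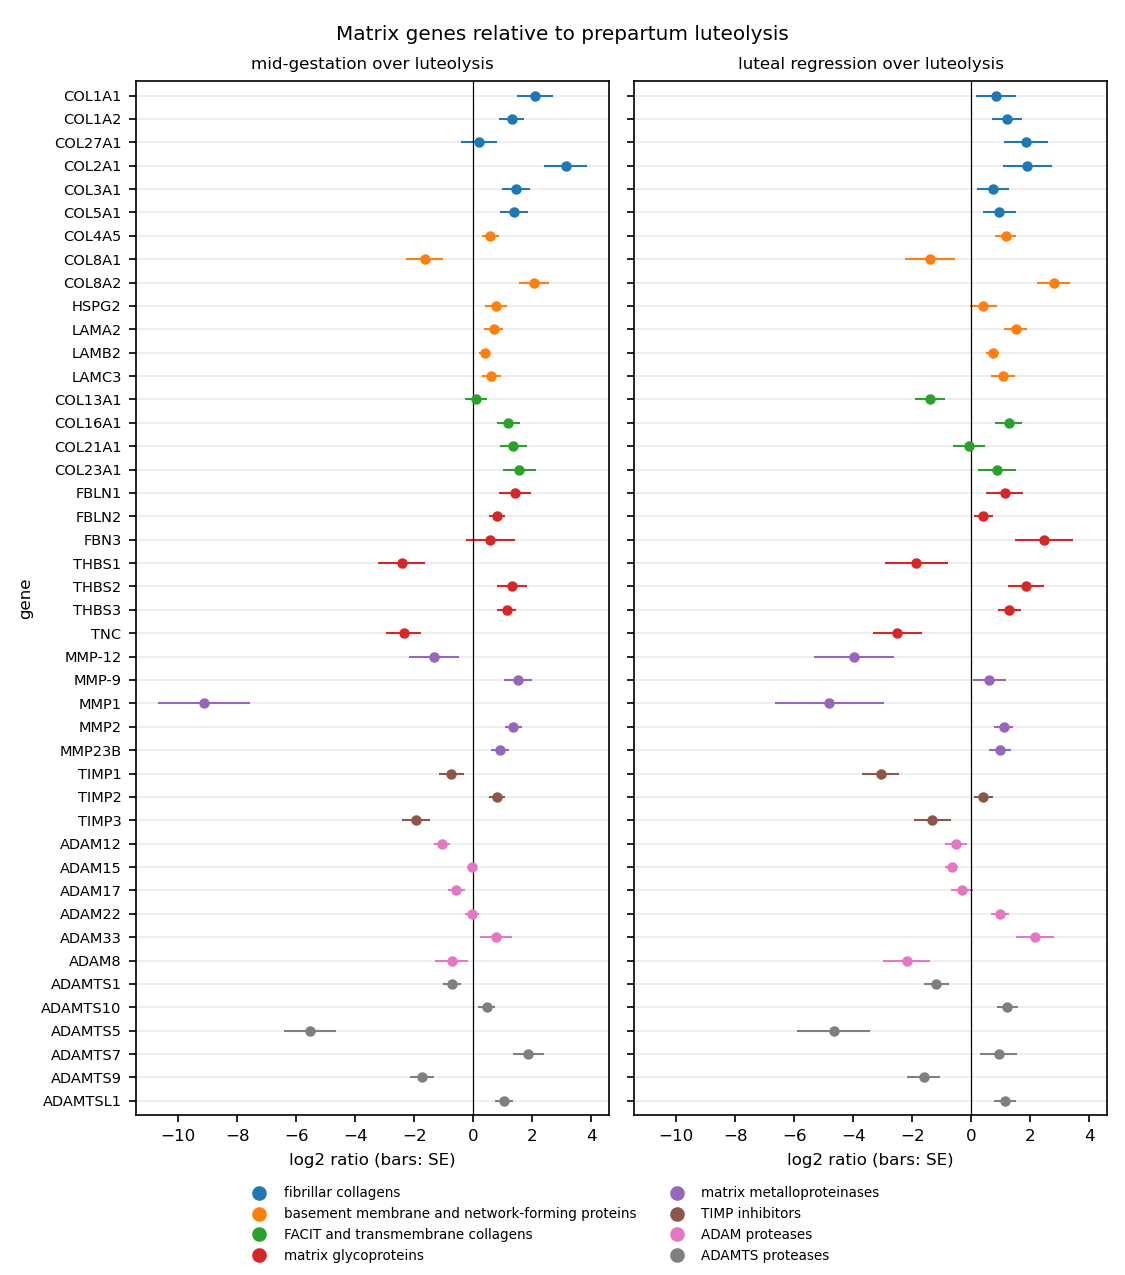
Log2 ratio (points) and SE (bars) of 44 of the 45 genes, coloured by role, in mid-gestation over luteolysis (left) and luteal regression over luteolysis (right); genes to the right of 0 are higher in the group named first. MMP1 and ADAMTS5 have the largest ratios, -9.13 and -5.55 in "mid-gestation over luteolysis", while the 6 fibrillar collagens all lie to the right of 0 there.

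The numbers of DEG changed when single dogs were left out. Without Amy they were 15 of 45 in "mid-gestation over luteolysis", 14 in "luteal regression over luteolysis" and 12 in "luteolysis over antigestagen". Without Senta they were 3, 0 and 0. Without Kimba they were 12, 16 and 3, and in "luteolysis over antigestagen" 4 without Birnur and 7 without Seran or Zeynep. Leaving out either Lissy or Mara gave 0 in "luteal regression over luteolysis". Levels of dogs did not overlap in 9 of 45 genes (20.0%, against 9.76% of all genes) in "mid-gestation over luteolysis". The number was 27 (60.0%, against 38.1%) in "luteal regression over luteolysis" and 6 (13.3%, against 7.74%) in "luteolysis over antigestagen". These contrasts helped to choose the genes, so that these shares too are a description only.

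In "mid-gestation over antigestagen", where treatment and the later day of sampling cannot be told apart, no matrix gene was a DEG by edgeR, as was so for all genes. Of the 45, 5 had an unadjusted p below 0.05 (11.1%, against 6.81% of all genes), none was a DEG by DESeq2 and none was without overlap of the dogs (0 against 1.24% of all genes). The median log2 ratio was 0.08, against -0.02 over all genes. This contrast also helped to choose the genes, so that these values are a description only. The fibrillar collagens had 6 of 6 positive ratios, from 0.22 to 1.23. MMP1 had -1.83 (SE 1.46), MMP-12 had 1.95 (SE 0.84) and TIMP1 had -0.66 (SE 0.38). With 5 dogs each and this SE, a log2 ratio of the size seen for MMP1 was not detectable.

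The authors' lists did not use "luteal regression over mid-gestation" and "luteal regression over antigestagen", although the dogs of these contrasts take part in others that they did use. In the edgeR fit over all 15 dogs no gene at all was a DEG in either (0%), with a smallest adjusted p of 0.319 and 0.132. An unadjusted p below 0.05 was found for 12 of 45 matrix genes (26.7%, against 14.1% of all genes) in the first and for 13 (28.9%, against 17.1%) in the second. DESeq2 had 4 DEG (8.89%, against 2.26%) and 6 (13.3%, against 6.31%). Dogs did not overlap in 15 genes (33.3%, against 30.5%) and 17 (37.8%, against 29.7%). The choice of the genes drew on the same dogs, so that all these shares too are a description only.

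TIMP1 had a log2 ratio of -2.33 (SE 0.58, adjusted p = 0.319, edgeR) in "luteal regression over mid-gestation" and of -2.99 (SE 0.61, adjusted p = 0.140, edgeR) in "luteal regression over antigestagen", and was lower in both luteal regression dogs than in all 10 others. ADAM15, a disintegrin of endothelial and epithelial cells, was at 76.5 CPM in Lissy and 59.5 in Mara, below all pregnant dogs (87.2 to 149), with -0.63 (SE 0.20, adjusted p = 0.319, edgeR) and -0.78 (SE 0.20, adjusted p = 0.166, edgeR). COL13A1 had -1.51 (SE 0.48) and -1.36 (SE 0.48), with adjusted p of 0.319 and 0.211 by edgeR. These 3 genes were DEG by DESeq2 in both contrasts. LAMA2, the laminin chain of muscle and nerve basement membranes, was above all pregnant dogs (81.4 to 254) in Lissy and Mara, with 1.30 (SE 0.34, adjusted p = 0.171, edgeR) over antigestagen. ADAM22, at 48.8 and 54.7 CPM in Lissy and Mara and 17.6 to 42.7 elsewhere, had 0.99 (SE 0.28, adjusted p = 0.319, edgeR) over mid-gestation. By DESeq2 ADAM22 was also a DEG over mid-gestation, and LAMA2, COL27A1 and COL8A2 over antigestagen. None of the 45 passed the correction over all genes by edgeR in these contrasts in the fit over all 15 dogs. In a fit of the dogs of both groups alone, 8 of the 45 were DEG in "luteal regression over mid-gestation" and 0 in "luteal regression over antigestagen". Without Citir, 1 gene, TIMP1, was a DEG in the latter, with a log2 ratio of -3.22. The share of all genes that were DEG in these further fits was not counted, so that nothing about matrix genes is read from these numbers.

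Some further genes were higher in luteal regression without overlap in the same 2 contrasts, though none was a DEG by edgeR. COL27A1 had log2 ratios of 1.66 (SE 0.66) and 1.88 (SE 0.65), ADAM33 of 1.38 (SE 0.57) and 1.31 (SE 0.57), FBN3 of 1.87 (SE 0.84) and 1.77 (SE 0.84), ADAMTS10 of 0.77 (SE 0.31) and 0.84 (SE 0.31), and COL8A2 of 0.74 (SE 0.49) and 1.42 (SE 0.48). In each, both luteal regression dogs were above all dogs of the group compared. With 2 dogs in luteal regression, 30.5% and 29.7% of all genes did not overlap either, so that nothing particular to these genes is read from it. The fibrillar collagens other than COL27A1 had ratios between -1.26 and 0.45, and MMP2 of -0.26 (SE 0.30) and 0.03 (SE 0.30). MMP1 had 4.31 (SE 1.54, adjusted p = 0.319, edgeR) over mid-gestation and 2.48 (SE 1.40) over antigestagen. Both MMP1 values rested on Lissy: over antigestagen the ratio was -3.54 without Lissy and 3.47 without Mara.

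**Figure D5:**
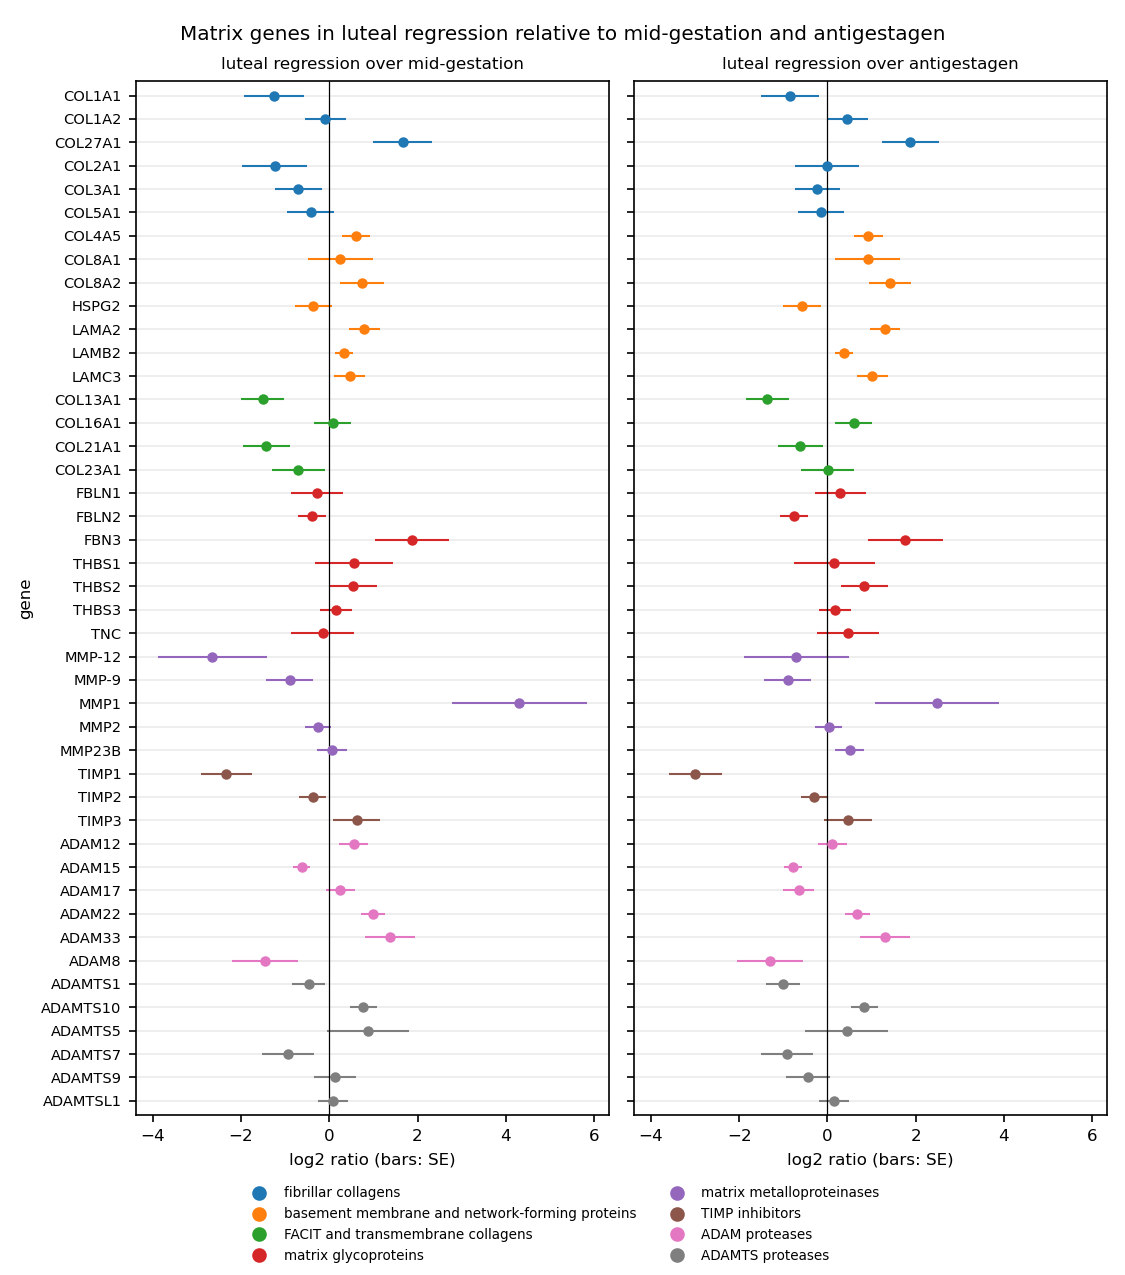
Log2 ratio (points) and SE (bars) of 44 of the 45 genes, coloured by role, in luteal regression over mid-gestation (left) and over antigestagen (right). TIMP1 lies at -2.33 and -2.99, COL27A1 at 1.66 and 1.88, and MMP1, at 4.31 and 2.48, has the widest bars.

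Genes that work with the matrix were read from lists of 102 genes for collagen processing, matrix receptors, plasminogen activation, proteoglycans, other matrix proteins and other proteases. Only 30 have an identifier here, and these come from the same lists of DEG. In "mid-gestation over luteolysis" 17 of 30 were DEG (10 higher, 7 lower at mid-gestation, against 8.16% of all genes tested), in "luteal regression over luteolysis" 12 (3 higher, 9 lower, against 5.11%) and in "luteolysis over antigestagen" 10 (6 higher, 4 lower, against 4.75%). As the choice of these genes used the same contrasts, nothing is read from these shares. None was a DEG by edgeR in the other 3 contrasts. The 5 named by p-value went with MMP1 and ADAMTS5 in part. PLAUR, the receptor that holds urokinase at the cell surface, was at 8.18 CPM in Amy, 51.8 in Kimba and 57.8 in Senta and between 3.34 and 10.6 in the other 12 dogs (log2 ratio -2.81, SE 0.47, in "mid-gestation over luteolysis"). ANXA2, which binds plasminogen and its activator, was at 465, 2280 and 4130 CPM in Amy, Kimba and Senta and between 302 and 507 elsewhere (-2.42, SE 0.42). SDC4, a heparan sulfate proteoglycan receptor, was at 221, 3230 and 4640 CPM in Amy, Kimba and Senta and between 147 and 843 elsewhere (-4.04, SE 0.66). SDC1, its relative, was at 9.68, 105 and 135 CPM in Amy, Kimba and Senta and between 11 and 22.9 elsewhere (2.59, SE 0.50, in "luteolysis over antigestagen"). HYAL2, a hyaluronidase, was at 83.2, 64 and 116 CPM in Amy, Kimba and Senta and at 33.5 and 36.3 in Lissy and Mara (-1.33, SE 0.33, in "luteal regression over luteolysis"). Of these, PLAUR, ANXA2, SDC4 and SDC1 were thus high in Kimba and Senta and not in Amy.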

How the data were processed

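The authors aligned single-end reads to CanFam3.1 with STAR 2.5.1b, summed them over Ensembl genes using featureCounts, and deposited the raw counts of 23630 genes in 15 dogs, from a kit that does not mark strand; counts from 10000 are rounded to 4 significant digits (3148 values). Each dog is 1 biological replicate, and groups follow the labels; Nescafe was kept at mid-gestation by title and condition, although its description gives the antigestagen group's number. Collection site per dog is not given in the sources used here. Replicate dogs differed by 32.1 to 261 chi-squared per degree of freedom, so that no library was a repeat of another.

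The counts were analysed in R 4.3.3 with edgeR 4.0.16 (TMM scaling, quasi-likelihood F-test over all 15 dogs, two-sided, mean count of at least 10 in a group of the contrast, 14922 genes in the fit, Benjamini-Hochberg adjustment over the genes tested) and checked on simulated data. The study's own tool, DESeq2 (here 1.42.0), was an alternative, as were its size factors in edgeR, no filter on low counts, the dogs of the 2 groups alone and each dog left out in turn. The SE is the log2 ratio divided by the square root of F. The SD of log2 CPM within groups was taken with 0.5 added to the CPM.

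The members, classes, partner lists and marker lists were chosen with earlier results of these data known. The authors' lists were read only for symbols, and their fold changes and p-values were not used. Values in every dog are given for the 2 members of largest log2 ratio in each direction of each contrast with a mean CPM of at least 1 in a group, for COL1A1, COL3A1, MMP2 and the TIMP, and for members called in the 2 contrasts outside the authors' lists; every other gene given by dog was picked after its values were seen. From the partner lists, the 3 called genes of smallest p per contrast are named. One member is counted in the totals but not reported here by itself. Whole gene families and sequences were not examined, since the reference table pairs no symbols with the identifiers of the counts.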

Additional observations from a re-analysis of the deposited data

Results flagged for a closer look

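For the 16 genes given by the naming rule, CPM were examined for single dogs far from the rest in the 2 groups of 5 dogs (32 groups of values), where chance alone marks about 1 in 20. One stood out. ADAMTS7 was at 24.4 CPM in the mid-gestation dog Dardanel, against 8.16 to 11.6 in the other 4, a gap of 0.788 of the range of the group. Groups of 3 and 2 dogs are too small for this criterion, so that the split among the luteolysis dogs was not examined by it.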

How the results depend on the processing

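The numbers of matrix genes that were DEG depended on the tool and on the dogs in the fit. With DESeq2's test they were 27 in "mid-gestation over luteolysis", 23 in "luteal regression over luteolysis", 18 in "luteolysis over antigestagen", 4 in "luteal regression over mid-gestation" and 6 in "luteal regression over antigestagen". With the dogs of the 2 groups alone they were 8, 0, 0 and 8 in the first 4 of these, and without a filter on low counts 4 in "luteal regression over luteolysis". With single dogs left out they ran from 3 to 20, 0 to 16, 0 to 12, 0 to 0 and 0 to 1 in the same order, and from 0 to 0 in "mid-gestation over antigestagen". For the partner genes DESeq2 gave 19, 18, 4 and 4 from the second contrast on, the 2 groups alone 7, 0, 0 and 5 in the first 4, and no filter 7 in "luteal regression over luteolysis". Their ranges with single dogs left out were 3 to 20, 0 to 21, 0 to 17, 0 to 0, 0 to 1 and, in "mid-gestation over antigestagen", 0 to 0. Where a luteal regression dog was left out, the other was assumed to vary like the rest. Apart from DESeq2's test, the share of all genes that were DEG was not counted under these settings. The changes in number are therefore not read as particular to matrix or partner genes.

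The 56 named log2 ratios were each recomputed under the alternative settings, which gave 643 values: 563 kept direction and call, 56 lost the call, 15 gained it and 9 changed sign. The 563 include ratios that were not DEG before or after, such as those in "mid-gestation over antigestagen". TIMP1 in "luteolysis over antigestagen" was -0.01 without Kimba, -0.15 without Senta, -0.15 without Citir and -0.05 without Suzan, and reached 0.37 without Amy. In "mid-gestation over antigestagen" TIMP2 ran from -0.13 without Nescafe to 0.22 without Turgay, and TIMP3 from -0.28 without Birnur to 0.07 without Suzan. In "luteal regression over antigestagen" MMP1 was -3.54 without Lissy and 3.47 without Mara, COL3A1 0.03 and -0.56, and MMP2 ran from -0.06 without Seran to 0.12 without Suzan. The causes were not tested. MMP1 in "luteal regression over mid-gestation" has no value without Lissy, since too few reads remain, and the counts for whole gene families were not run. No paired analysis was possible because each dog gave 1 library, and the numbers of the dogs were given in the order of the samples within a group.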
